A study of Mus musculus with 16 samples.

Results

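Atp6v0d2, Gpnmb, Fabp5, Fabp7, Cd207, Anpep, Ms4a7 and Pf4 are 8 genes whose expression moved in opposite directions in the GFP-high and the GFP-intermediate activated hepatic stellate cells (aHSCs) of mice after deletion of WT1. They were chosen by the ratio of WT1-deleted over control expression, above 1 in GFP-high and below 1 in GFP-intermediate cells, so these ratios and the opposite directions are a description and not a finding. The genes are 8 of 5954 distinct named rows over the 3 tables of the series, and 8 of the 45 named rows listed in both deletion tables.

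Hepatic stellate cells, the vitamin A-storing pericytes of the liver, become collagen-producing myofibroblasts after injury, and WT1 is a transcription factor of the mesothelium. RNA was sequenced from 16 samples, 10 of aHSCs from 6 animals and 6 of quiescent stellate cells (qHSCs) from 3 other animals, all labelled male and of strain C57/Bl6. The aHSCs came from livers injured with carbon tetrachloride for 8 weeks, were enriched by density centrifugation and were sorted as positive for the Ai14 red reporter. All 4 groups of aHSCs carried PDGFRbCre, Ai14 and a GFP allele of the Wt1 locus, with a wild-type second allele in control (WT1_+_GFP) and a floxed one in WT1-deleted (WT1_fl_GFP) animals, so that the controls themselves had a single intact allele. PDGFRbCre acts in every cell that has expressed the pericyte gene Pdgfrb, and no sorting marker beyond the reporters is described in the sources used here. GFP-high cells were measured in 3 control and 3 WT1-deleted samples. GFP-intermediate cells, labelled Low, were measured in 2 control samples, 1 of them pooled from 2 animals, and in 2 WT1-deleted samples. Of the WT1-deleted animals, 2 gave both fractions and 1 gave GFP-high cells alone. The qHSCs came from uninjured WT1CreERT2;Ai14 animals given tamoxifen at E10.5 of embryonic life and were sorted by the red reporter into 3 lineage label-positive and 3 label-negative samples. The study's methods describe females, not males, for such qHSCs. Values of Wt1 itself were not analysed here.

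In injured liver most of these genes are best known from myeloid cells. Macrophages that take up lipid and debris in scars make the lysosomal glycoprotein Gpnmb, the lipid carrier Fabp5 and a proton pump subunit encoded by Atp6v0d2, and resident or infiltrating macrophages can make Ms4a7, Pf4 and the lectin Cd207. Fabp7 is the fatty acid-binding protein of glia and is also made by Kupffer cells, and Anpep encodes the surface peptidase CD13 of myeloid and stromal cells.

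Each value below is the authors' FPKM (sequenced fragments for each kilobase of a transcript, relative to all mapped fragments) of a whole group, with the replicates already combined. No spread between animals can be given, no test was made, and the depth behind the values is unknown. Because FPKM is scaled to transcript length, levels can be compared between genes within a group. The tables of the fractions were normalised separately, so a level in GFP-high set beside a level in GFP-intermediate cells also carries any difference of scale. The named genes of a table all have an authors' q-value below 0.05 in the deposited comparisons, and a gene without a row has an unknown level. For the deletion these are more genes than the study's text counts as changed, and the selection behind that count was not analysed here. In RNA of a whole fraction, fewer cells of a type and less RNA per cell cannot be told apart.

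In the GENCODE vM21 annotation (GRCm38) the genes lie apart from each other, and the submitters' notes name both mm9 and mm10 for the deposited values. On the plus strand are Fabp5 at chr3:10012548-10016607, Pf4 at chr5:90772435-90773383, Gpnmb at chr6:49036546-49070929 and Fabp7 at chr10:57784881-57788450. On the minus strand are Atp6v0d2 at chr4:19876841-19922605, Cd207 at chr6:83671215-83677857, Anpep at chr7:79821803-79861059 and Ms4a7 at chr19:11321039-11336146. Anpep overlaps 1 other annotated gene, Gm44974 on the same strand, and the other 7 genes overlap 0. Promoter sequence from RefSeq (GRCm38.p6) was matched for 6 of the 8 genes in 7 windows, with a second window for Ms4a7, and Atp6v0d2 and Fabp5 have no entry. The 250 bases before each start were searched on both strands for CACGTG and TCATGTG, which MiT/TFE factors of lysosomal genes bind, for GAGGAAG, a core of the myeloid factor PU.1, for TGANTCA, the AP-1 core, and for GCGTGGG, bound by EGR factors and WT1. The sequences are shown 5′ to 3′ on the strand of the gene, as the 120 bases that end just before the start, for the windows that hold a match and for Gpnmb, which holds none. Capitals mark the matches.
Pf4, chr5:90772315-90772434, plus strand: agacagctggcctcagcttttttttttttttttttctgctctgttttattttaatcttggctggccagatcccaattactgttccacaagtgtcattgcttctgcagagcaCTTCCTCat
Cd207, chr6:83677858-83677977, minus strand: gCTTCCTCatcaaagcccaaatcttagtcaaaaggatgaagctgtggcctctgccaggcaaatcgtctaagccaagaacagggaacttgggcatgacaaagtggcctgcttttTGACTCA
Ms4a7, chr19:11334696-11334815, minus strand: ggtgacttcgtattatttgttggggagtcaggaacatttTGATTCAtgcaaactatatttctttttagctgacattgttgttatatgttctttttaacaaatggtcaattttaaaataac
Gpnmb, chr6:49036398-49036517, plus strand: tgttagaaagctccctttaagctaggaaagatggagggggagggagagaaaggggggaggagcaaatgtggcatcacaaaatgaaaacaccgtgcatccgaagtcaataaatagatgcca

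GAGGAAG was found in the windows of Pf4 and Cd207, in each as its reverse complement, and in 10.6% of all 32851 promoter windows. TGANTCA was found in Cd207, where its last letter is the last base before the start, and in the Ms4a7 window that lies inside the annotated gene but in none of its exons, against 6.75% of all windows. The letters CACGTG were found in 0 of the 7 windows, against 6.02% of all windows. The same count of 0 held for TCATGTG, against 3.25% of all windows, and for GCGTGGG, against 4.3%. No motif was therefore shared by more than 2 of the genes. A match describes letters and not binding, and the window covers only the 250 bases before a start.

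Gpnmb and Atp6v0d2 are tied to the lysosome. Gpnmb stood at 20.8 FPKM in control GFP-high cells against 101 after deletion, and at 178 FPKM in control GFP-intermediate cells against 39.7 after deletion. It was thus 4.85-fold higher after deletion in GFP-high cells, a log2 ratio of 2.28, and 4.47-fold lower in GFP-intermediate cells, a log2 ratio of -2.16. The 2 changes were close in size and opposite in sign. Atp6v0d2, which encodes the d2 subunit of the membrane sector of the vacuolar proton pump and takes part in the fusion of osteoclasts, was the lowest of the 8 genes in each of the 4 groups. It stood at 1.5 FPKM in control GFP-high cells against 12.7 after deletion, and at 19.6 FPKM in control GFP-intermediate cells against 1.30 after deletion. Its log2 ratios of 3.08 and -3.91 were the farthest from 0 among the 8 genes in both fractions. In GFP-intermediate cells the fall ranked 2 among the 233 lower rows with a finite ratio, and in GFP-high cells the rise ranked 21 among 82 higher rows.

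Fabp5 and Fabp7 carry fatty acids in the cytosol. Fabp5 was the most abundant of the 8 genes in all 4 groups. It stood at 42.0 FPKM in control GFP-high cells against 134 after deletion, and at 223 FPKM in control GFP-intermediate cells against 78.9 after deletion. The log2 ratios were 1.68 and -1.5, the latter the smallest fall among the 8 genes. Transcripts of 2 processed pseudogenes, Gm14328 and Gm6166, match that of Fabp5 over at least 200 bases at 97.3% and 98.3% identity, so the FPKM of Fabp5 could depend on how the authors placed shared reads, which was not tested. None of the other 7 genes had a match to another gene at 95% identity or more over that length. Fabp7 stood at 11.7 FPKM in control GFP-high cells against 44.3 after deletion, and at 65.9 FPKM in control GFP-intermediate cells against 14.1 after deletion. Its log2 ratios of 1.92 and -2.23 lay next to the medians of the 8 genes.

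Cd207 encodes langerin, the C-type lectin of Langerhans cells, and Anpep and Ms4a7 encode surface proteins, a peptidase and a tetraspanning MS4A protein. Cd207 stood at 5.74 FPKM in control GFP-high cells against 19.9 after deletion, and at 26.9 FPKM in control GFP-intermediate cells against 3.71 after deletion, with log2 ratios of 1.79 and -2.86. Anpep stood at 4.92 FPKM in control GFP-high cells against 27.2 after deletion, and at 53.5 FPKM in control GFP-intermediate cells against 14.9 after deletion, with log2 ratios of 2.46 and -1.84. For Anpep the rise was the larger of the changes and for Cd207 the fall. Ms4a7 stood at 13.6 FPKM in control GFP-high cells against 39.2 after deletion, and at 75.8 FPKM in control GFP-intermediate cells against 18.7 after deletion, with log2 ratios of 1.52 and -2.02.

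Pf4, also called Cxcl4, is a secreted chemokine of platelets that macrophages make as well. It stood at 23.1 FPKM in control GFP-high cells against 65.6 after deletion, and at 209 FPKM in control GFP-intermediate cells against 27.5 after deletion. The log2 ratio of 1.51 in GFP-high cells was the smallest rise among the 8 genes, whereas the ratio of -2.93 in GFP-intermediate cells was the largest fall after that of Atp6v0d2. The direction of change was shared by the 8 genes through their choice, while the relative size of rise and fall differed between them.

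**Figure D1:**
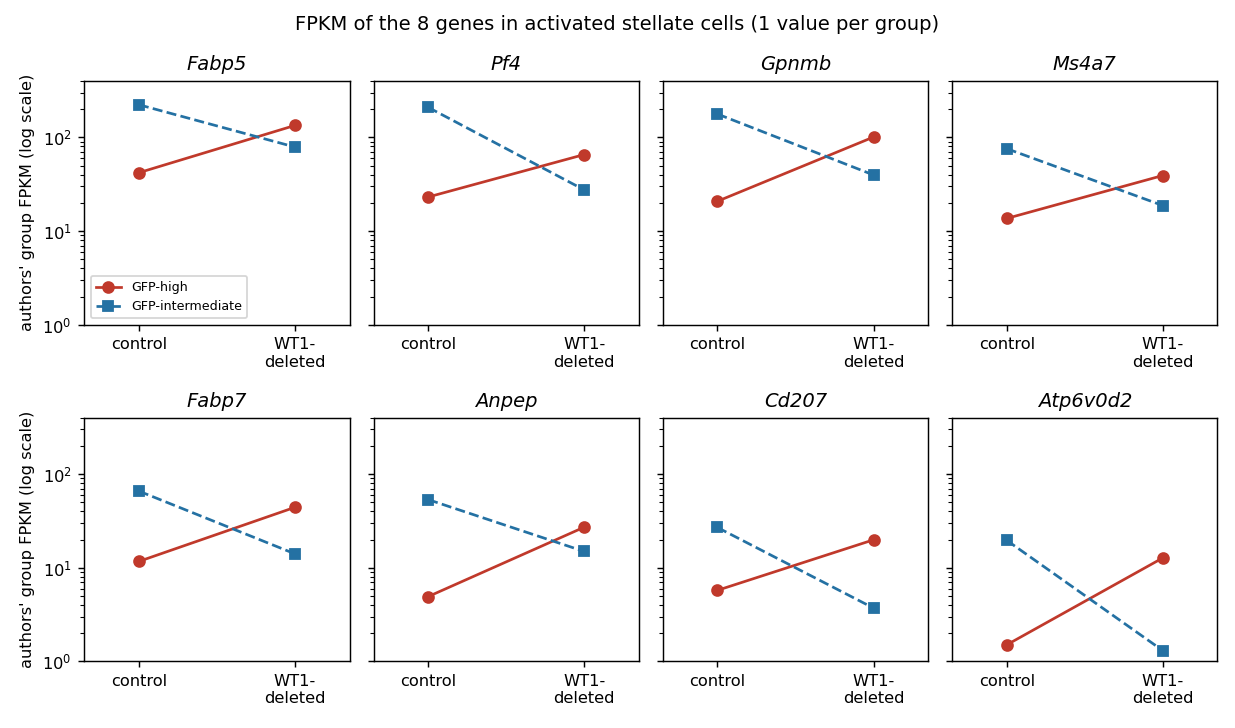
Authors' group FPKM of the 8 genes on a log axis in control and WT1-deleted aHSCs, 1 panel per gene, with red circles and a solid line for GFP-high and blue squares and a dashed line for GFP-intermediate cells. Each point is 1 group value with no error bar, and in all 8 panels the lines cross.

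The lines cross because the order of the fractions differed between controls and WT1-deleted animals. In controls the FPKM of the 8 genes was 4.69 (Cd207) to 13.1 (Atp6v0d2) times as high in the GFP-intermediate as in the GFP-high table. After deletion it was 1.70 (Fabp5) to 9.77 (Atp6v0d2) times as high in the GFP-high as in the GFP-intermediate table. As a gauge of scale, 31 rows that changed in the same direction in both fractions and were above 0 in all 4 groups had a median ratio of 1.28 in controls, GFP-intermediate over GFP-high, with a range from 0.405 to 8.01. Their median ratio after deletion, GFP-high over GFP-intermediate, was 0.888, with a range from 0.355 to 1.45. In controls the ratios of Cd207, Fabp5, Ms4a7 and Fabp7, 4.69 to 5.63, lay inside the range of those rows. These rows and the 8 genes were picked for opposite properties, so the ratios are set side by side as a description. The product of the ratios in controls and after deletion is above 1 by the choice of the genes, and it does not depend on the scale of either table. On the log2 scale it ran from 3.18 for Fabp5 to 7.0 for Atp6v0d2, with a median of 4.37.

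WT1-deleted GFP-high cells held 31.3% (Pf4) to 73.9% (Cd207) of the FPKM of control GFP-intermediate cells. WT1-deleted GFP-intermediate cells held 64.7% (Cd207) to 303% (Anpep) of the FPKM of control GFP-high cells. The order of the genes by level in control GFP-intermediate cells was Fabp5, Pf4, Gpnmb, Ms4a7, Fabp7, Anpep, Cd207 and Atp6v0d2. In WT1-deleted GFP-high cells Gpnmb stood above Pf4, and Fabp7 above Ms4a7, with the other places unchanged. Whether neighbours in these orders differ beyond the spread between animals cannot be told from group values.

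Direction alone was common in these tables. In GFP-high cells 95 of 123 named rows, 77.2%, were higher after deletion, and in GFP-intermediate cells 263 of 419, 62.8%, were lower. The median log2 ratio of the 8 genes in GFP-high cells was 1.86, beside 2.28 for all higher rows with a finite ratio. In GFP-intermediate cells it was -2.19, beside -1.61 for all lower rows. Of the 45 named rows in both tables, 24 were higher in both fractions, 9 were lower in both, 11 or 24.4% were higher in GFP-high and lower in GFP-intermediate cells, and 1 had the reverse directions. The 8 genes make up most of the 11 by their choice, and nothing is read from that count. None of the 18 unnamed loci listed in both tables had opposite directions.

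**Figure D2:**
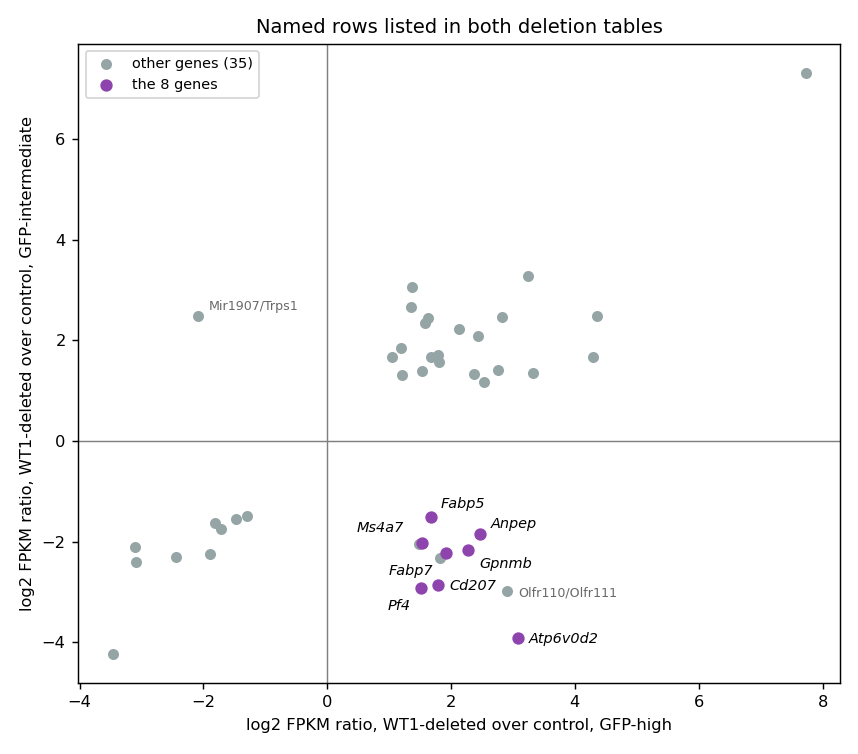
Log2 FPKM ratio of WT1-deleted over control in GFP-high (x axis) and in GFP-intermediate cells (y axis) for the 43 named rows with a finite ratio in both tables, with the 8 genes in purple and 35 other rows in grey. The 8 genes sit in the lower right corner with 3 grey points, and 1 grey point, Mir1907/Trps1, sits in the upper left.

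The other 3 rows with the same directions were those of Arhgap19, Kcnk13 and a row shared by the olfactory receptors Olfr110 and Olfr111. Arhgap19, a GTPase-activating protein, was at 3.64 and 12.9 FPKM in GFP-high controls and deleted cells, and at 19.0 and 3.76 FPKM in the GFP-intermediate ones. It lay 0.14 log2 units from the medians of the 8 genes, where the distance is taken over both ratios, and the 8 genes themselves lay 0.07 to 2.11 units away. Kcnk13, a potassium channel, had an FPKM in GFP-high cells of 1.5 and 4.18, and in GFP-intermediate cells of 10.1 and 2.46, at a distance of 0.41. The shared Olfr110 and Olfr111 row was at 0.249 and 1.87 in GFP-high and at 3.03 and 0.384 in GFP-intermediate cells. The next rows naming a single gene were Niacr1 at 3.23, Irg1 at 3.40 and Postn at 3.44, each with the same direction in both fractions, and their distance follows largely from the opposite signs by which the 8 genes were chosen. The row with the reverse directions, shared by Mir1907 and Trps1, was at 18.8 and 4.44 in GFP-high and at 5.87 and 32.9 in GFP-intermediate cells. The rule used the sign of the change and no size, so these rows stand inside and outside of it only by their names and signs.

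Genes of the families and pathways of the 8 genes were counted in both tables. Only 123 named rows are listed in GFP-high and 419 in GFP-intermediate cells. Most genes therefore lack a row, and nothing is read from an absence or from the fraction in which it occurs. Of 24 other subunits of the vacuolar proton pump, 0 had a row in either deletion table, and the same held for 13 other fatty acid- and retinoid-binding proteins and for 10 other M1 aminopeptidases. Among 17 other MS4A genes only Ms4a4d had a row, which in GFP-high cells went from 1.03 to 4.24. Among 22 other C-type lectins of the Cd207 group, 3 had a row, all in GFP-intermediate cells and all lower. Clec4f, the Kupffer cell lectin, went from 174 to 43.8, Clec4d from 185 to 71.2 and Clec4a2 from 61.0 to 20.2. Among 21 other CXC chemokines and receptors, Cxcl14 was lower in GFP-intermediate cells, from 71.4 to 19.99, and Cxcl5, a neutrophil attractant, was higher, from 65.9 to 200.1. Thus Pf4 and Cxcl14 were lower and Cxcl5 was higher in the same cells. Among 25 lysosomal genes, Ctsh was lower in GFP-intermediate cells, from 347 to 124, and so was Lipa, from 254 to 81.1, and 0 of the 25 had a row in GFP-high cells. Of 14 other osteoclast and cell fusion genes, Acp5 was lower, from 222 to 84.3, and so was Mmp9, from 20.7 to 7.30, again in GFP-intermediate cells alone.

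Macrophage genes were lower beside the 8 genes in GFP-intermediate cells, where 62.8% of all named rows were lower. Of 25 genes of scar- and lipid-associated macrophages, 8 had a row and all 8 were lower, with a median log2 ratio of -2.21. Mmp12 went from 551 to 40.3, Capg from 462 to 162, Cd36 in a row with Mir5109 from 389 to 57.7, and Lpl from 342 to 57.7. Of 19 genes of resident Kupffer cells, 12 had a row, in 11 rows that were all lower, with a median of -1.91. The complement genes C1qb and C1qc, which share a row, went from 1463 to 284, C1qa from 609 to 121, Cd5l from 297 to 79.0 and Csf1r from 269 to 100.2. Of 20 monocyte and general myeloid genes, 8 had a row and all 8 were lower, with a median of -1.49. Ctss went from 1799 to 486, Fcer1g from 725 to 325, Cybb from 266 to 75.5 and Itgam from 202 to 69.9. Over these 3 lists the summed FPKM of the 27 listed rows was 9069.7 in control and 2367 in WT1-deleted GFP-intermediate cells, 0.261 of the control level, and their log2 ratios ran from -3.77 to -1.16. The fall of the 8 genes, from -3.91 to -1.5, overlapped that span, but the 8 genes were chosen for falling there. All lower rows in these cells had a median log2 ratio of -1.61, so nothing is read from the overlap. The part of macrophage RNA in the values of the 8 genes was not tested.

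In GFP-high cells, where the 8 genes were higher after deletion, the same 64 macrophage and myeloid genes had 0 rows. Their levels there are unknown, since not every gene has a row. The lists leave out the 8 genes, which were chosen for having a row in both tables, so nothing is read from that difference.

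**Figure D3:**
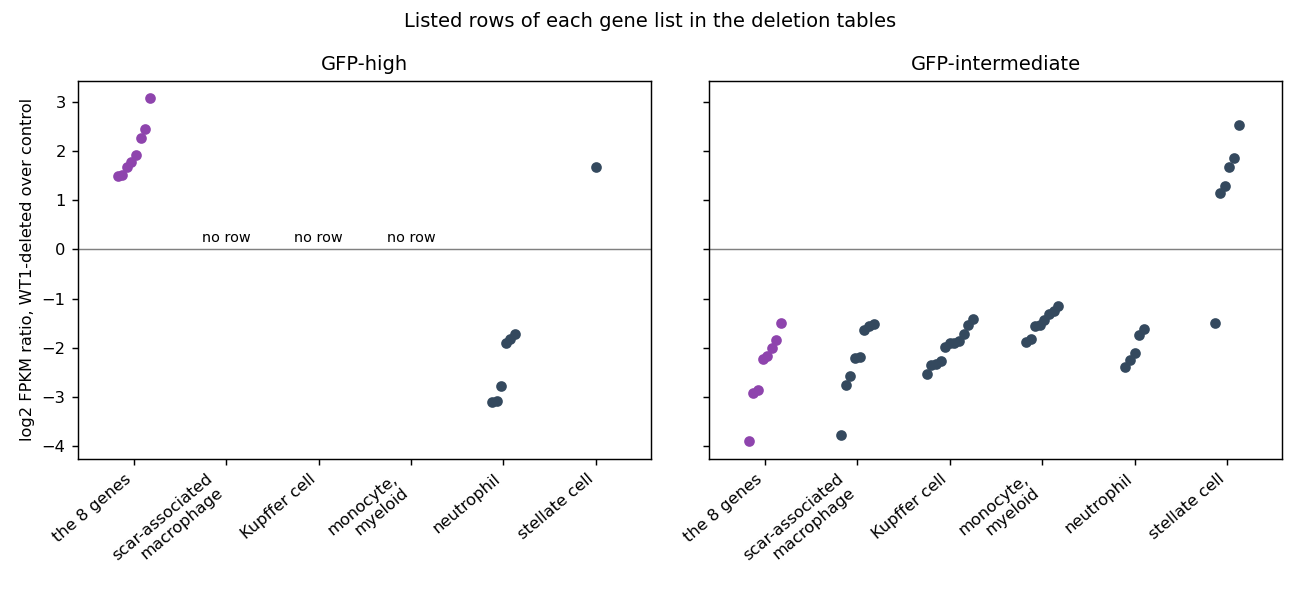
Log2 FPKM ratio of WT1-deleted over control (y axis) in GFP-high (left) and GFP-intermediate cells (right) for the 8 genes in purple and for the listed rows of 5 gene lists in dark blue, 1 point per row, sorted within each list. The 27 macrophage and myeloid rows are all below 0 in GFP-intermediate cells and have no row in GFP-high cells, and the neutrophil rows are below 0 in both.

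In the lists of other cell types, the genes with a row in both tables kept 1 direction, as did 33 of all 45 named rows in both. The remaining rows include the genes chosen for opposite directions, so no contrast with those genes is read. The neutrophil genes S100a8, S100a9, Retnlg, Ngp and Ltf were lower in both fractions, beside 9 of all 45 named rows. In GFP-high cells S100a8 went from 268 to 81.1 and S100a9 from 203 to 57.4. In GFP-intermediate cells S100a8 went from 412 to 123 and S100a9 from 260 to 84.5. Of 22 stellate cell genes, Lum, a proteoglycan of the collagen matrix, was higher in both, from 42.6 to 136 and from 38.1 to 122. In GFP-intermediate cells 6 of the 22 had a row and 5 of these rows were higher, beside 156 of all 419 named rows. The other rows there were Rgs5, Colec11, Lox and Cygb, which were higher, and Hgf, which was lower. The rest of this list has no row in aHSCs, so those levels are unknown. The 6 stellate cell rows of GFP-intermediate cells summed to 119 FPKM in controls and 303 FPKM after deletion. The 27 macrophage and myeloid rows of the same cells summed to 9069.7 and 2367 FPKM. These sums hold listed rows only, and the share of each cell type in the sorted cells was not tested. The platelet list of 15 genes, which leaves out Pf4, had a single row, in which Itgb3 was higher in GFP-intermediate cells, from 3.88 to 9.17. The dendritic and Langerhans cell list of 18 genes had, in GFP-intermediate cells, Epcam higher, from 1.30 to 5.70, and the shared row of Clec1b and Clec9a lower, from 42.2 to 14.1. The sinusoidal endothelial list had 1 lower row in GFP-intermediate cells, the mesothelial list 1 lower row and the hepatocyte list 1 higher row in GFP-high cells. The lymphocyte list had 1 higher row in GFP-high and 1 lower row in GFP-intermediate cells, made of different genes. In GFP-high cells the row of the T cell receptor gene Trac and its joining segments went from 10.9 to 213, a log2 ratio of 4.29. In GFP-intermediate cells Gzma went from 9.93 to 3.05.

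The qHSCs of uninjured liver were not used to choose the genes. Of the 8 genes, 4 had a row among the 5716 of that table, and Atp6v0d2, Anpep, Ms4a7 and Pf4 had none. Fabp5 stood at 26.9 FPKM in label-negative against 79.0 in label-positive cells, a log2 ratio of 1.55. Fabp7 stood at 2.83 against 8.29 FPKM, also a log2 ratio of 1.55, and Cd207 at 14.8 against 27.3 FPKM, a log2 ratio of 0.88. Gpnmb went the other way, from 1.6 FPKM in label-negative down to 0.387 FPKM in label-positive cells, a log2 ratio of -2.04 that shrank to -0.90 with a pseudocount of 1. Hence 3 of the 4 listed genes were higher in label-positive cells, beside 50.4% of all rows, and 4 genes are too few to set apart from that share. Gpnmb was the least abundant of these 4 genes in qHSCs. In all 4 groups of aHSCs it stood below Fabp5 and above Fabp7 and Cd207. The qHSCs came from other animals without injury, and the difference in order was not tested.

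**Figure D4:**
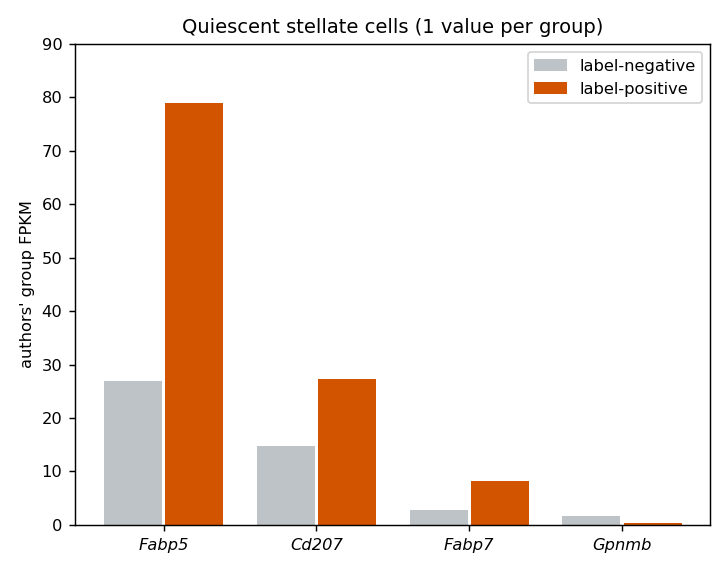
Authors' group FPKM (y axis, from 0) of the 4 genes with a row in the qHSC table, with grey bars for label-negative and orange bars for label-positive cells, 1 value per group and no error. Fabp5, Cd207 and Fabp7 are higher in label-positive cells and Gpnmb is lower.

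Genes of the same families moved in both directions in qHSCs. Of all rows there, 50.4% were higher in label-positive cells. The median log2 ratio was 1.31 over all higher and -2.02 over all lower rows with a finite ratio. The counts below stand beside that share and were not tested. The fatty acid-binding protein genes Fabp1, Fabp4 and Fabp2 were higher in label-positive cells, Fabp1 from 24.1 to 478, Fabp4 from 70.2 to 133 and Fabp2 from 0.275 to 4.91. All 9 listed MS4A genes were lower, with a median log2 ratio of -3.19, whereas Ms4a7 had no row. Of 18 listed C-type lectins 7 were higher, among them Clec4f from 34.2 to 166, and 11 were lower, among them Cd209a from 23.7 to 3.79. The 3 listed pump subunits, Atp6v0e2, Atp6v1a and Atp6v1g1, were higher, with a median log2 ratio of 0.70. Of 3 listed M1 aminopeptidases Enpep was higher, from 65.1 to 185, and Lnpep and Lvrn were lower. Of 16 listed CXC genes 6 were higher, with Cxcl10 from 74.0 to 407, and 10 were lower, with Cxcl2 from 324 to 114. Markers of other cell types differed between these fractions as well. All 16 listed Kupffer cell genes were higher in label-positive cells, with a median log2 ratio of 1.60, and all 17 listed monocyte and general myeloid genes were lower, with a median of -2.03. All 13 sinusoidal endothelial and all 13 hepatocyte genes listed were higher, and all 16 lymphocyte and all 11 neutrophil genes listed were lower. Of 13 listed stellate cell genes, 4 were higher and 9 lower in label-positive cells, with a median log2 ratio of -1.28. Pdgfrb stood at 0.905 FPKM in label-negative and 0.370 FPKM in label-positive cells, Cygb at 2.63 and 1.09, and Dcn at 109 and 49.0. Sparc was among the higher, at 358 and 1079. The sinusoidal endothelial gene Stab2 stood at 309 and 845 FPKM. Of the scar- and lipid-associated macrophage genes 9 were higher and 7 lower. The part of these cell types in the values of Fabp5, Fabp7, Cd207 and Gpnmb was not tested.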

How the data were processed

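Activated and quiescent stellate cells were sorted and their RNA sequenced. The deposited values are FPKM, made by the authors with the replicates of each group combined. All 123, 419 and 5716 named rows have an authors' q-value below 0.05, and the deletion tables list more genes than the study's text counts as changed. The study's methods name an Illumina HiSeq, bowtie 2 and Cuffdiff2. The submitters' processing notes list TopHat2 2.0.3, Cufflinks 2.0.1, DESeq2 and the builds mm9 and mm10, with no roles. The tables hold 231 rows for GFP-high (108 of them loci without a gene name), 568 for GFP-intermediate (149 unnamed) and 5716 for quiescent cells. The named rows carry the same FPKM in a second set of tables, whose fold changes, p-values and q-values are the authors' comparisons and were used only to check that threshold.

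Rows were matched by gene symbol, and a row naming several genes counted for each of them. Log2 ratios of group FPKM were taken without a pseudocount. No gene was tested, because each group has 1 value, and depth is unknown. Protein sequences were not used here, and some genes of the lists are not reported here. The members and 19 gene lists were chosen with earlier results of these data known. The genes named were the 8 genes, all other rows with opposite directions, the 5 rows nearest to the members' medians, and of each list the genes in both deletion tables or else up to 4 with the highest FPKM in GFP-intermediate cells, with all listed genes of the members' families eligible. Further stellate cell, sinusoidal endothelial and lymphocyte genes of the lists were named outside this rule. Python 3.11.15, pandas 2.3.3, numpy 2.4.6, matplotlib 3.10.9 and blastn 2.17.0 were used, and the counting was tested on simulated tables. Alternatives were pseudocounts of 1 and 0.1, a floor of 1 FPKM on the larger group value, rows that name 1 gene, and an absolute log2 ratio of at least 1.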

Additional observations from a re-analysis of the deposited data

How the results depend on the processing

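A value counted as moved when an alternative changed it by more than 1.5-fold, since no spread between replicates exists. Of 56 alternative values for the ratios of the 8 genes and their differences between fractions, 52 stayed within that limit, 4 moved and 0 changed sign. With a pseudocount of 1 the log2 ratio of Atp6v0d2 became 2.46 in GFP-high and -3.16 in GFP-intermediate cells and its difference between fractions 5.62. The log2 ratio of Gpnmb in quiescent cells became -0.90. These ratios moved because they rest on low values. Atp6v0d2 had an FPKM of 1.5 in control GFP-high and 1.30 in WT1-deleted GFP-intermediate cells. Gpnmb had 1.6 in label-negative and 0.387 in label-positive quiescent cells. With rows kept only where the larger group value reached 1 FPKM, 1 rather than 2 M1 aminopeptidase rows was lower in quiescent cells. The other 49 counts over lists, and all 15 alternative counts and shares over the tables, stayed within 1.5 times. No paired analysis was possible because the values are group values, and for the same reason no replicate could be left out. The depth of the samples is unknown, so the error of low values such as those of Atp6v0d2 cannot be given.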
